A study of Bos taurus with 12 samples.

Results

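The genes described here encode the proteins of the mitochondrial ribosome, the large (MRPL) and small (MRPS) subunit proteins, in growth plate chondrocytes of cattle. Members were all probe sets whose symbol in the platform's annotation starts with MRPL or MRPS followed by a digit. This gave 84 of 24128 probe sets, 53 named MRPL and 31 named MRPS, for 67 of 9155 named genes, 43 of the large and 24 of the small subunit. A probe set is a group of short probes read together as 1 value for a transcript. Of the 67 genes, 53 had 1 probe set and 14 had several, and a gene with several was represented by its brightest probe set, the one highest in log2 signal averaged over all arrays. The RefSeq gene table lists 78 coding genes of these 2 name families, and the 11 without a named probe set (MRPL1, MRPL17, MRPL33, MRPL40, MRPL47, MRPL54, MRPS10, MRPS12, MRPS18C, MRPS21 and MRPS33) were not analysed here.

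The mitochondrial ribosome translates the few proteins that mitochondrial DNA encodes, all of them subunits of the respiratory chain and the ATP synthase. Its ribosomal RNAs come from mitochondrial DNA, but every one of its proteins is encoded in the nucleus, made in the cytosol and imported, so its supply joins 2 genomes. About the growth plate, it is known that hypertrophic chondrocytes enlarge greatly before they mineralise their matrix, while reserve zone cells are small and divide slowly.

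The cells came from the distal metacarpal growth plate of male dairy cattle under 10 months old. They were freed with Collagenase P over 4 hours and parted by density, and the lightest cells were taken as hypertrophic zone (HZ) and the heaviest as reserve zone (RZ). The labels name no treatment, genotype or breed for any sample. Each of 12 arrays held the RNA of 1 fraction, 6 from each zone, in pairs numbered 1 to 6 that the series calls independent. The labels do not say that each pair was 1 animal, so p-values cover only how much these 6 pairs vary. HZ and RZ are density fractions and not dissected zones, and in such bulk RNA fewer cells of a type and less RNA per cell cannot be told apart.

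Chondrocyte identity was checked on 6 measured marker genes, of which 0 passed the test between zones. COL2A1, the main cartilage collagen, had a mean signal of 25060.2 in HZ and 23571.9 in RZ. Of 9 hypertrophic markers 6 rose in HZ, and of 6 reserve zone markers 4 fell. COL10A1, IBSP and SPP1 did not pass and were bright in both zones. Their mean signals were 21619.6, 11709.9 and 18261.1 in HZ against 20146.6, 10723.0 and 14726.6 in RZ. Of the reserve zone markers GDF5 and NT5E did not pass, with means of 52.8 and 3262.4 in HZ against 47.3 and 2692.7 in RZ. Of 9 macrophage and osteoclast markers 7 rose and 0 fell. The summed signal of the 9 ran from 8506 to 11200.5 on HZ arrays and from 3324 to 7614 on RZ arrays. CD14 and CD68 did not pass, with means of 563.7 and 332.5 in HZ against 1003.7 and 304.0 in RZ, so CD14 was lower in HZ. Summed granulocyte markers ran from 428 to 2393 in HZ and from 549 to 10581 in RZ, and 1 of 7 fell in HZ. Of 6 T cell and cytotoxic lymphocyte markers 2 fell, CD2 and NKG7, and their summed signal ran from 303 to 439 in HZ and from 390.4 to 1328 in RZ. Of 5 endothelial markers PECAM1 fell, and the sums ran from 185 to 519 in HZ and from 472 to 712 in RZ. No erythroid marker of 5 and no osteoblast or fibroblast marker of 6 passed. Summed erythroid markers ran from 65.8 to 195.9 in HZ and from 143.2 to 264.6 in RZ. Osteoblast and fibroblast sums ran from 3912 to 6742 in HZ and from 4889 to 22178 in RZ, so these cells are not shown to be equal in both zones. The lowest mean signal of any macrophage marker over all 12 arrays was 83.5. In RZ alone C1QC, C1QB and AIF1 had means of 33.2 ± 46.8, 34.5 ± 26.6 and 43.8 ± 45.6 (SD, n = 6 arrays). The part of these other cells in the differences given here was not tested. Arrays of pairs 1 and 2 also differed from the rest in the grain of their values, so differences within pairs 1 and 2 and within pairs 3 to 6 are given for the genes described in full.

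Of 84 member probe sets 3 passed the test between the zones, all higher in HZ (3.57%, beside 3.26% of all probe sets). MRPL14 and MRPL34, both of the large subunit, rose in HZ by 1.90-fold and 1.83-fold, and 1 of the 2 probe sets of MRPS34, a small subunit gene, rose by 1.64-fold. No member fell in this fit, and MRPS18A was the lowest at -0.69, with an adjusted p of 0.0592 (limma). On the log2 scale 47 of the 67 genes (70.1%, beside 53.7% of all named genes) lay within 0.25 of no difference, 63 (94.0%, beside 81.3%) lay within 0.5, and their median was 0.02. A log2 difference of 1 is a doubling, and every difference here is HZ minus RZ of log2(signal + 16), which understates changes of dim probe sets.

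The test was limma's with a block for each pair, with p adjusted over 24016 probe sets and a threshold of 0.05. Among all probe sets tested, 3.26% passed as higher and 2.96% as lower, 6.22% in all. The share of members that rose was near the share of all probe sets that rose. In both directions together the members were at 3.57%, below 6.22%. A gene that did not pass is not shown to be equal in both zones. Of genes read by their representative probe set, 2 of 67 (2.99%) rose and 0 fell, beside 4.17% and 3.56% of all named genes. At an unadjusted p under 0.05 there were 8 member probe sets, 7 higher and 1 lower, or 9.52% beside 22.2% of all probe sets. Of all 24016 probe sets 2500 were higher and 2823 lower at that p. HZ was higher in all 6 pairs in 6 member probe sets and lower in 2, 9.52% together beside 14.0% of all probe sets (6.85% higher and 7.15% lower). With 64 added to the signal in place of 16, 5 members passed, beside 8.90% of all probe sets. Among the 16010 brightest probe sets it was 4 of 81 beside 13.8%, and with no pair block 2 of 84 rose beside 2.10%.

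**Figure D1:**
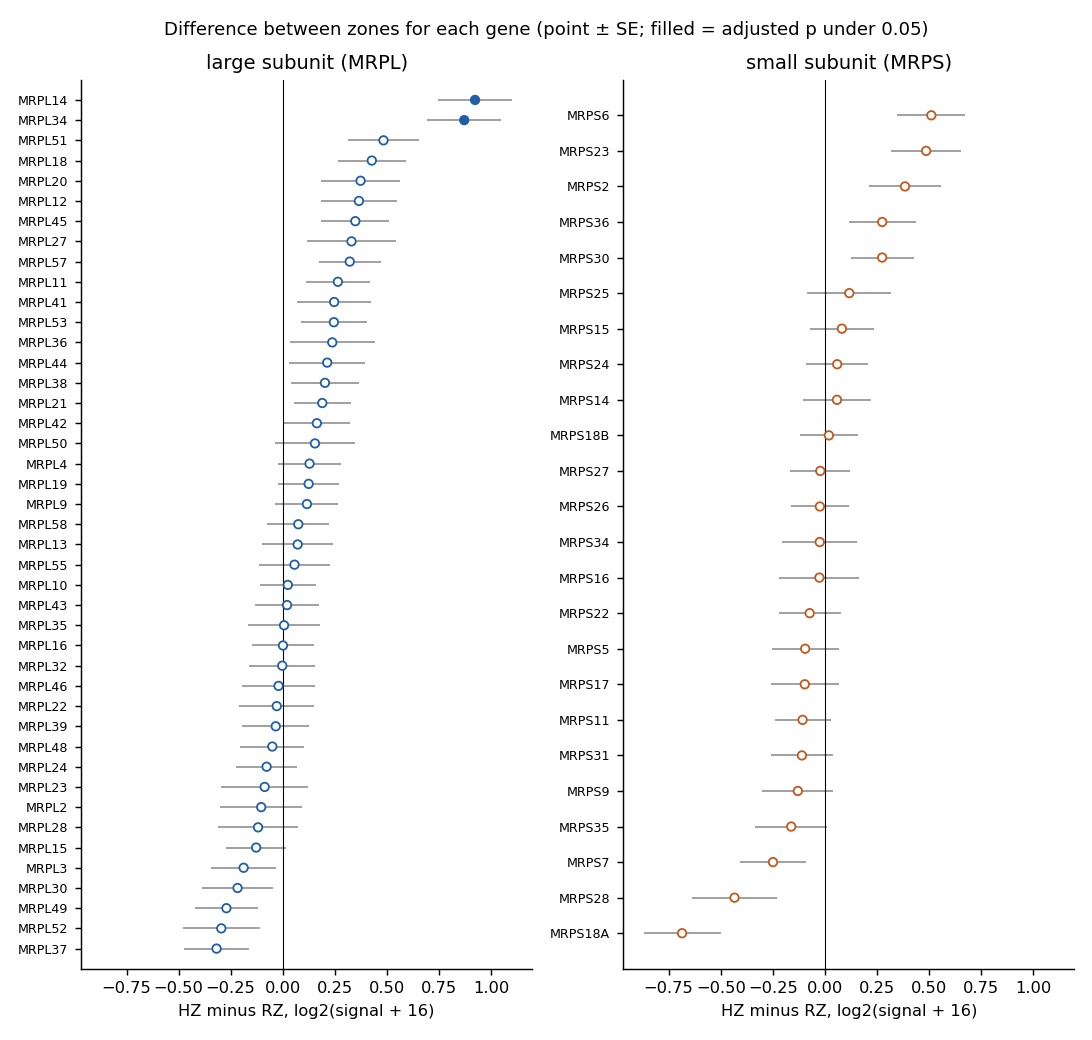
The log2 difference HZ minus RZ of each of the 67 genes at its representative probe set, with its standard error as a bar, split by subunit and ordered by size; filled points passed an adjusted p of 0.05 (limma). MRPL14 and MRPL34, the filled points, stand at the top of the large subunit at 0.92 and 0.87, MRPS18A stands at the bottom of the small subunit at -0.69, and 63 of the 67 points lie within 0.5 of 0.

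MRPL14 codes for a core protein of the large subunit that lies at the face towards the small subunit, where it also binds the assembly factor MALSU1. In pairs 1 to 6 its HZ signals were 545, 336, 446, 363, 366 and 275, and its RZ signals 164, 255, 210.3, 193, 189 and 159. Every HZ array was above every RZ array, and the narrowest gap was that of the lowest HZ array, in pair 6, to the highest RZ array, in pair 2. Means were 389 ± 94.4 for HZ and 195 ± 35.1 for RZ (SD, n = 6 arrays each), a log2 difference of 0.92 ± 0.18 (SE) with an adjusted p of 0.0175 (limma) and a 95% interval of 0.53 to 1.32. Within pairs 1 and 2 the difference was 1.01, and within pairs 3 to 6 it was 0.88. The adjusted p was 0.0522 without pair 4 and 0.0566 without pair 5, at differences of 0.94 and 0.93, and with 1 added to the signal in place of 16 it was 0.0523. MRPL14 overlaps another coding gene, TMEM63B, which had a log2 difference of -0.35 (adjusted p = 0.164, limma).

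The other probe set of MRPL14 was dim and gave a different picture. Its signals in HZ were 23.1, 34.0, 8.25, 32.8, 13.9 and 32.9 over pairs 1 to 6, against 14.6, 14.3, 24.2, 36.2, 24.3 and 13.0 in RZ. The zones overlapped widely, and HZ was higher in 3 of 6 pairs. Its log2 difference was 0.10 ± 0.22 (SE) with an adjusted p of 0.857 (limma), 0.54 within pairs 1 and 2 and -0.13 within pairs 3 to 6, so the rise of MRPL14 rests on 1 of its 2 probe sets.

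MRPL34 is a small core protein of the large subunit with a bacterial relative. Its signals in HZ were 502, 247, 377, 319, 281 and 307 over pairs 1 to 6, against 159, 191, 187, 182, 129 and 200.7 in RZ. Again every HZ array was above every RZ array, with the lowest HZ value in pair 2. Means were 339 ± 90.7 for HZ and 175 ± 26.3 for RZ (SD, n = 6 arrays each), a log2 difference of 0.87 ± 0.18 (SE) with an adjusted p of 0.0223 (limma) and a 95% interval of 0.47 to 1.27. Within pairs 1 and 2 the difference was 0.96, and within pairs 3 to 6 it was 0.83. The adjusted p was 0.0639 without pair 1, 0.0601 without pair 4 and 0.0751 without pair 5, and 0.0613 with 1 added in place of 16. Its neighbour ABHD8 had a log2 difference of 0.57 (adjusted p = 0.0929, limma).

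MRPL14 and MRPL34 were the only members whose zones did not overlap, 2 of 84 probe sets (2.38%), beside 1.68% of all probe sets with every HZ array above every RZ array. For the opposite order the count was 0 of 84, beside 1.21% of all probe sets. In both genes pair 1 had the largest difference, 1.64 and 1.57 on the log2 scale, and pair 2 the smallest, 0.38 and 0.34.

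**Figure D2:**
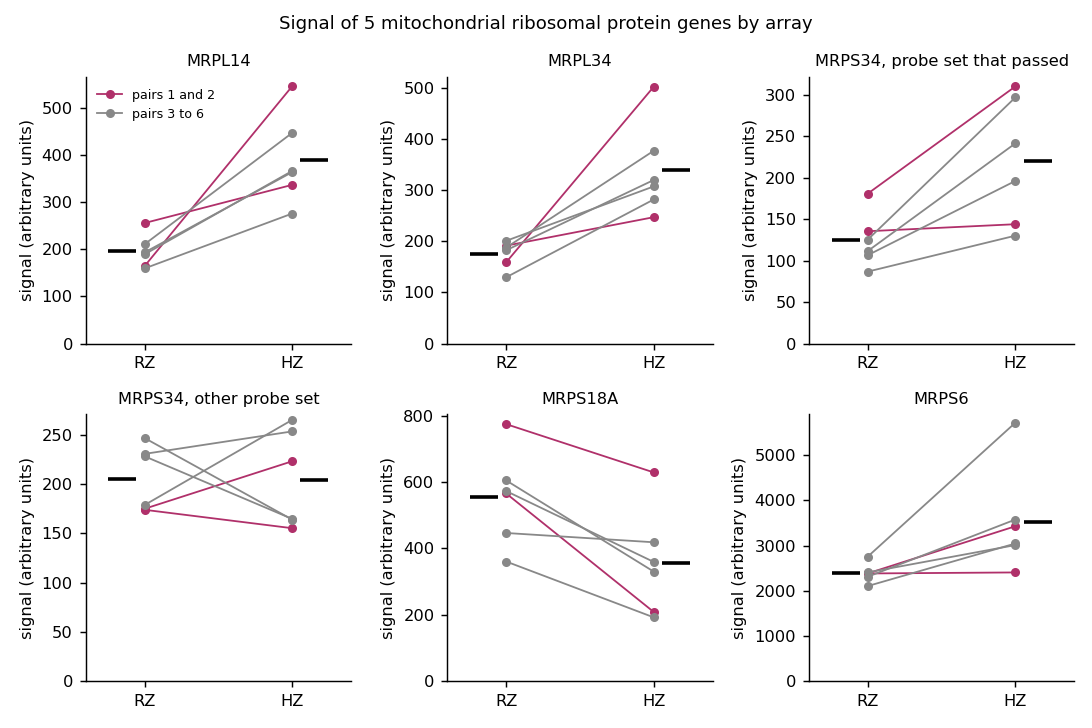
Signal in arbitrary units on each RZ and HZ array, on linear axes from 0, for 5 member genes; points are arrays, lines join the arrays of a pair, colour parts pairs 1 and 2 from pairs 3 to 6, and black bars are zone means. In MRPL14 (its brighter probe set) and MRPL34 every HZ point lies above every RZ point, while the zones overlap in both probe sets of MRPS34 and in MRPS18A and MRPS6.

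MRPS34 has no bacterial relative and is needed for a stable ribosomal RNA of the small subunit. At its probe set that rose, signals in HZ were 310.5, 144, 130.3, 196, 297 and 242 over pairs 1 to 6, against 181, 136, 86.9, 107, 126 and 112 in RZ. HZ was higher in 6 of 6 pairs, but HZ arrays of pairs 2 and 3 lay below the RZ array of pair 1, so the zones overlapped. Means were 220.0 ± 76.1 for HZ and 125 ± 32.3 for RZ (SD, n = 6 arrays each), a log2 difference of 0.71 ± 0.17 (SE) with an adjusted p of 0.0390 (limma) and a 95% interval of 0.33 to 1.09. Within pairs 1 and 2 the difference was 0.40, and within pairs 3 to 6 it was 0.86. This call was the least steady of the 3: of the 6 fits that each left out a pair it passed in the fit without pair 2 (adjusted p = 0.0288), and in the others the adjusted p ran up to 0.119. It was 0.118 with no pair block and 0.0816 with 1 added in place of 16.

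The representative probe set of MRPS34 read 223, 155, 254, 265, 165 and 164 in HZ of pairs 1 to 6 against 175, 174, 231, 179, 228 and 247 in RZ. HZ was higher in 3 of 6 pairs, and the means were 204 ± 49.2 and 206 ± 33.2 (SD, n = 6 arrays each). Its log2 difference was -0.02 ± 0.18 (SE) with an adjusted p of 0.960 (limma), 0.088 within pairs 1 and 2 and -0.081 within pairs 3 to 6. The probe sets of MRPS34 thus disagreed, and no direction is given for the gene as a whole.

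MRPS2, a core protein of the small subunit, was the other gene whose probe sets had opposite signs, though neither passed. Its brighter probe set read 236, 79.1, 103, 151, 239.6 and 223 in HZ of pairs 1 to 6 against 186, 61.3, 104, 145, 107 and 142 in RZ, with a log2 difference of 0.38 ± 0.17 (SE). The dimmer probe set read 79.5, 15.5, 53.5, 105.3, 35.2 and 92.2 in HZ against 79.99, 59.8, 83.97, 65.7, 91.7 and 16.2 in RZ. The zones overlapped at both probe sets. The dimmer one had a difference of -0.09 ± 0.35 (SE), the widest error among the members, and HZ was higher in 2 of 6 pairs. Adjusted p-values were 0.227 and 0.920 (limma). Within pairs 1 and 2 the probe sets were at 0.31 and -0.64, and within pairs 3 to 6 at 0.42 and 0.18.

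In the other 12 of the 14 genes with several probe sets, all probe sets of a gene had the same sign. The spread between probe sets of a gene exceeded 0.5 on the log2 scale in MRPL14 (0.83) and MRPS34 (0.74). It was 0.00 in MRPS35, with differences of -0.16 at both probe sets, and 0.06 among the 3 probe sets of MRPL23. MRPS9 had the lowest dimmer probe sets, at -0.47 ± 0.27 and -0.54 ± 0.27 (SE), beside -0.13 ± 0.17 at its representative, and these 3 did not pass (adjusted p = 0.357, 0.281 and 0.724, limma). The dimmer probe sets of MRPL30 and MRPL46 had mean signals under 7.34, the fixed divisor that the deposited ratios use for dim probe sets, and carry little information.

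Among members that did not pass, the largest difference was that of MRPS18A, and it was on the lower side. MRPS18A is named for a small subunit protein but sits in the large subunit of the mammalian ribosome. Its signals in HZ were 629, 208, 192, 329.6, 418 and 359 over pairs 1 to 6, against 774.5, 565, 360.1, 605, 446 and 573 in RZ. HZ was lower in 6 of 6 pairs, yet HZ-1 lay above 5 of the 6 RZ arrays, so the zones overlapped. Means were 356 ± 160.0 and 554 ± 142 (SD, n = 6 arrays each), and the log2 difference was -0.69 ± 0.18 (SE) with an adjusted p of 0.0592 (limma) and a 95% interval of -1.10 to -0.27. It was -0.84 within pairs 1 and 2 and -0.61 within pairs 3 to 6. With 64 added in place of 16 the adjusted p was 0.0336, and with the dimmest probe sets left out it was 0.0271.

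Its paralog MRPS18B, a protein of the small subunit, was the small subunit gene closest to 0. Signals in HZ were 923, 697, 491, 536, 527 and 546 over pairs 1 to 6, against 748, 715, 521, 609, 468 and 565 in RZ. The log2 difference was 0.02 ± 0.14 (SE), with a 95% interval of -0.29 to 0.33, which leaves out a change of the size measured for MRPS18A. It was 0.13 within pairs 1 and 2 and -0.037 within pairs 3 to 6. The remaining paralog, MRPS18C, was not analysed here.

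MRPS6, a core small subunit protein at the rim of its platform, had the second largest difference in size of the small subunit genes. Signals in HZ were 3429, 2405, 3047, 3578, 5726 and 3011 over pairs 1 to 6, against 2384, 2382, 2103, 2309.7, 2756 and 2406 in RZ. HZ was higher in 6 of 6 pairs, but by only 0.01 on the log2 scale in pair 2 and by 1.05 in pair 5. Means were 3533 ± 1149 and 2390.3 ± 211 (SD, n = 6 arrays each), a log2 difference of 0.51 ± 0.16 (SE) with an adjusted p of 0.0978 (limma), which was 0.0444 with 64 added in place of 16. The difference was 0.27 within pairs 1 and 2 and 0.63 within pairs 3 to 6. MRPS6 overlaps the coding gene SLC5A3, and the 2 cannot be separated without the probes' positions. This limit holds for 12 of the 67 genes, among them MRPL14, MRPL51 (which overlaps VAMP1) and MRPL16 (which overlaps STX3).

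In the large subunit MRPL51 and MRPL18 followed the 2 genes that rose. MRPL51, a protein with no bacterial relative, read 996, 738, 1357, 969.6, 1020.4 and 754 in HZ of pairs 1 to 6 against 652, 805, 752.5, 789, 547 and 561 in RZ. HZ was higher in 5 of 6 pairs, the exception being pair 2, and the log2 difference was 0.48 ± 0.17 (SE) with an adjusted p of 0.126 (limma). For MRPL51 it was 0.24 within pairs 1 and 2 and 0.61 within pairs 3 to 6. MRPL18, which binds a structural RNA of the large subunit, read 777, 557, 991, 799, 749 and 555 in HZ of pairs 1 to 6 against 707, 524, 562, 691, 401 and 398 in RZ. HZ was higher in 6 of 6 pairs, and the log2 difference was 0.43 ± 0.16 (SE) with an adjusted p of 0.158 (limma). For MRPL18 it was 0.11 within pairs 1 and 2 and 0.59 within pairs 3 to 6.

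MRPL16, which lies near the catalytic centre of the large subunit, had the smallest difference of all members. It read 2234, 1630.0, 1379, 2128, 1944 and 1675 in HZ of pairs 1 to 6 against 2349.8, 1936, 1571, 2378, 1605 and 1269.9 in RZ. Means were 1832 ± 326 and 1852 ± 449 (SD, n = 6 arrays each), and the log2 difference was 0.00 ± 0.15 (SE) with a 95% interval of -0.33 to 0.34. Pairs 1 to 4 were lower in HZ and pairs 5 and 6 higher, with -0.16 within pairs 1 and 2 and 0.081 within pairs 3 to 6.

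The remaining genes of the large subunit did not pass. MRPL20 and MRPL12 were at 0.37, MRPL45 at 0.35, MRPL27 at 0.33 and MRPL57 at 0.32 on the log2 scale, with adjusted p-values of 0.241 or more (limma). MRPL12 forms the stalk that recruits translation factors and also binds the mitochondrial RNA polymerase, and MRPL45 holds the ribosome at the inner membrane. Between 0.26 and 0.12 lay MRPL11, MRPL41, MRPL53, MRPL36, MRPL44, MRPL38, MRPL21, MRPL42, MRPL50, MRPL4, MRPL19 and MRPL9. Between 0.07 and -0.05 lay MRPL58, MRPL13, MRPL55, MRPL10, MRPL43, MRPL35, MRPL32, MRPL46, MRPL22, MRPL39 and MRPL48, of which MRPL58 frees peptides from stalled ribosomes. Between -0.08 and -0.32 lay MRPL24, MRPL23, MRPL2, MRPL28, MRPL15, MRPL3, MRPL30, MRPL49, MRPL52 and MRPL37. MRPL37 was the lowest, at -0.32 ± 0.16 (SE), and was lower in HZ in 6 of 6 pairs (adjusted p = 0.270, limma).

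The remaining genes of the small subunit did not pass either. MRPS23, which has no bacterial relative, was at 0.49 ± 0.17 (SE) and higher in HZ in 6 of 6 pairs, with an adjusted p of 0.121 (limma), and it passed after quantile normalization. MRPS36 was at 0.28 and MRPS30 at 0.27. MRPS36 was named as a ribosomal protein but is now assigned to the ketoglutarate dehydrogenase complex, and MRPS30 sits in the large subunit. Between 0.12 and -0.16 lay MRPS25, MRPS15, MRPS24, MRPS14, MRPS27, MRPS26, MRPS16, MRPS22, MRPS5, MRPS17, MRPS11, MRPS31, MRPS9 and MRPS35. MRPS7 was at -0.25 and MRPS28 at -0.43 ± 0.20 (SE), the latter with an adjusted p of 0.245 (limma) and -0.28 at its other probe set.

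How large an unseen difference could be was read from the 95% intervals. They lay within a doubling or halving in 64 of 67 genes and within 0.5 on the log2 scale in 31 (46.3%), beside 25.0% of all named genes. The standard errors of the 67 genes ran from 0.13 to 0.22 with a median of 0.16, so a difference of 0.25 was less than 2 standard errors for each of them.

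The subunits were set side by side. The 43 MRPL genes had a median log2 difference of 0.07, with 28 above 0 (65.1%), and ran from -0.32 to 0.92. The 24 MRPS genes had a median of -0.02, with 10 above 0 (41.7%), and ran from -0.69 to 0.51. The median of all 9155 named genes was -0.01, with 48.9% above 0. The difference between the subunit medians was 0.10, and in pairs 1 to 6 it was 0.18, -0.005, 0.21, 0.072, 0.14 and 0.14. It was above 0 in 5 of 6 pairs, with an SD over the pairs of 0.077, and is given as a description with no test, because the members were chosen with results of these arrays known. With MRPS18A and MRPS30 counted in the large subunit where they sit, and MRPS36 left out, the difference was again 0.10.

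Members with and without a bacterial relative were also set side by side, in classes chosen after their values were seen. The median was 0.07 in the 25 large subunit genes with a relative, which hold both MRPL14 and MRPL34, and 0.11 in the 18 without. In the small subunit it was -0.06 in 14 genes with a relative and -0.02 in 9 without. Subunits here follow the symbols, so MRPS18A (with a relative) and MRPS30 (without) count in the small subunit, and MRPS36 is in neither class.

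**Figure D3:**
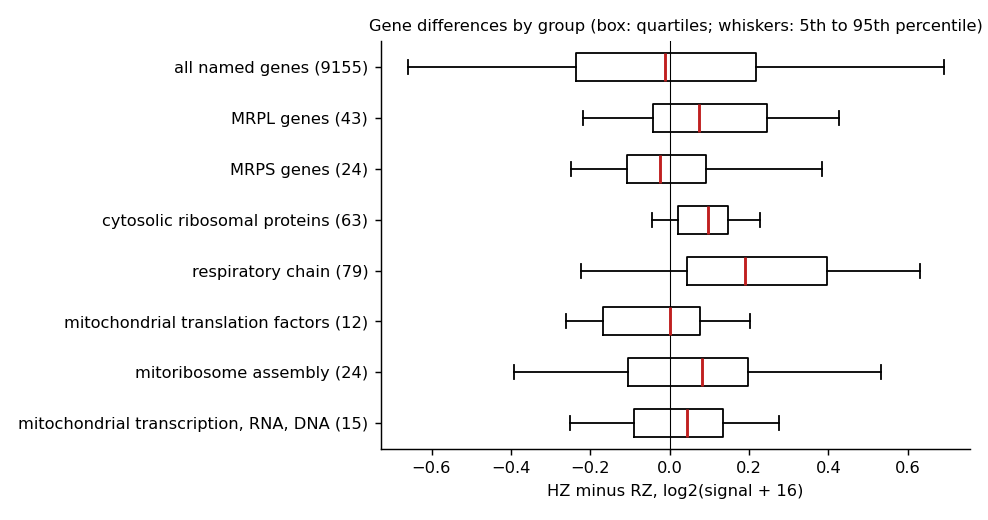
Log2 differences HZ minus RZ of the genes of each list, with the number of genes in brackets; red lines are medians, boxes span the quartiles and whiskers run from the 5th to the 95th percentile. The MRPL genes centre at 0.07, the MRPS genes at -0.02, the cytosolic ribosomal proteins at 0.10 and the respiratory chain genes at 0.19.

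The median of the members varied between pairs, on both sides of 0. The median log2 difference in pairs 1 to 6 was 0.14, -0.25, 0.25, 0.16, 0.17 and -0.06, and the number of the 67 genes above 0 was 43, 9, 48, 44, 47 and 29. Pair 2 thus had 9 genes higher in HZ while pair 3 had 48. Medians of all named genes in the same pairs were 0.02, -0.13, 0.18, -0.09, 0.04 and -0.07, so pairs 2 and 3 stood apart over all genes in the same directions. Pair 4 was an exception, where the members were above 0 and the median of all named genes below it. Within pairs 1 and 2 the median of the members was -0.05, and within pairs 3 to 6 it was 0.12, beside -0.06 and 0.01 for all named genes. A test of whether the zone difference of a probe set differed between these sets of pairs passed an unadjusted p of 0.05 in 2 of 84 members (2.38%), beside 5.03% of all probe sets, and in 0 after adjustment (limma, lowest adjusted p among members = 0.859).

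**Figure D4:**
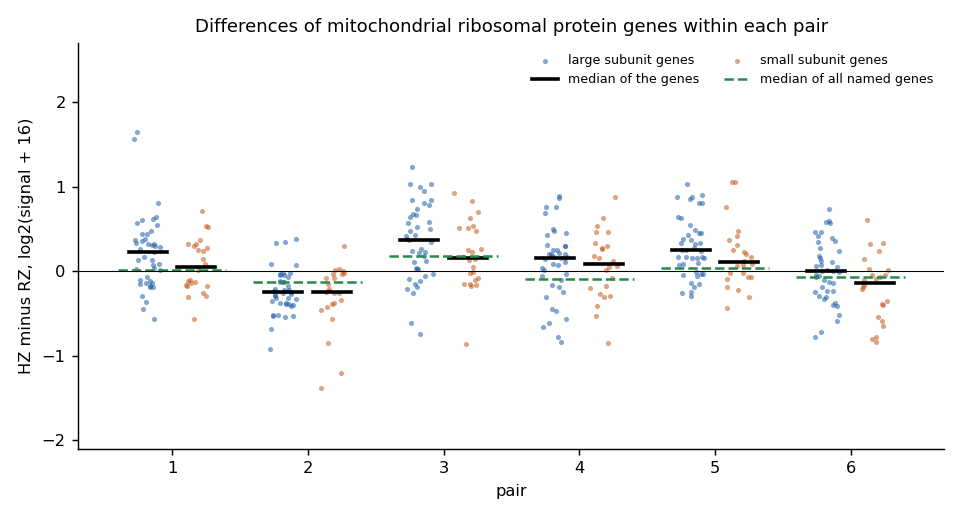
Log2 difference HZ minus RZ in each of the 6 pairs, with a point for each MRPL gene (blue) and MRPS gene (orange), black bars at their medians and dashed green lines at the median of all named genes. Both subunits are lowest in pair 2, at -0.25 and -0.24, and highest in pair 3, at 0.37 and 0.16.

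A measure of RNA integrity also differed within pairs. The log2 ratio of 3′ to 5′ control probe sets, HZ minus RZ, was 1.44, 0.02, 0.68, 1.22, 0.68 and 0.11 for actin in pairs 1 to 6, and 0.11, 0.18, 1.27, 0.87, 0.31 and -0.26 for GAPDH. The ratio was thus higher in HZ in every pair for actin, and in every pair but pair 6 for GAPDH. On single arrays the log2 ratio for actin ran from 1.63 to 3.58. Pairs 2 and 6, in which the median of the members was below 0, had the lowest actin values. The actin value was largest in pair 1 and smallest in pair 2, as were the differences of MRPL14 and MRPL34. The largest GAPDH value was that of pair 3. For GAPDH the lowest values were those of pairs 6 and 1, and in pair 1 the median of the members was above 0. A fit without pairs 3 and 4 was added because their GAPDH ratios stood apart. In it the median of the members was -0.02. Of 84 member probe sets 0 passed in that fit, beside 139 of all 24016, and it also has fewer arrays. The part of RNA quality in these medians, and in the zone differences of single genes, was not tested.

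Proteins of the mitochondrial ribosome with other symbols were measured for 5 genes, and 0 of the 5 passed, beside 7.73% of all named genes. DAP3, a small subunit protein also known from cell death, had a log2 difference of -0.36 ± 0.17 (SE) and an adjusted p of 0.246 (limma). CHCHD1 was at 0.11, GADD45GIP1 at 0.03, PTCD3 at -0.01 and AURKAIP1 at -0.05.

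Of 24 genes for ribosome assembly and ribosomal RNA modification in mitochondria, 1 rose and 1 fell (8.33%, beside 7.73% of all named genes), and their median was 0.08. YBEY, an RNA-processing enzyme that acts on the small subunit, rose from a mean signal of 549 ± 74.6 in RZ to 832 ± 118 in HZ (SD, n = 6 arrays each), a log2 difference of 0.58 ± 0.14 (SE) with an adjusted p of 0.0366 (limma). Its other 2 probe sets were at 0.56 and 0.59. The call of YBEY was lost in each of the 6 fits that left out a pair (adjusted p = 0.0568 to 0.113, limma). DHX30, an RNA helicase needed to assemble the mitochondrial ribosome, fell from 639.6 ± 180.4 in RZ to 401 ± 181 in HZ, a difference of -0.72 ± 0.16 (SE) with an adjusted p of 0.0279 (limma). DHX30 passed in the fit without pair 6 (adjusted p = 0.0446, limma) and not without any other pair, and not without the pair block (adjusted p = 0.212, limma). RBFA, a maturation factor of the small subunit, was at 0.54 (adjusted p = 0.0676, limma). TFB1M, which methylates the small subunit RNA, was at -0.57 (adjusted p = 0.0705, limma), with 0.04 and 0.27 at its other probe sets. MALSU1, the partner of MRPL14 in assembly, had a difference of 0.53 ± 0.17 (SE), was higher in HZ in 6 of 6 pairs and did not pass (adjusted p = 0.0903, limma).

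The factors that work with the ribosome gave 0 calls in 12 translation factors (beside 7.73% of all named genes), with a median of 0.00. GFM2, a factor for ribosome recycling, was at -0.41, and TUFM, the elongation factor that brings transfer RNA, was at -0.26 and lower in HZ in 6 of 6 pairs. TSFM, its exchange factor, was at -0.25, and MTFMT, which formylates the initiator transfer RNA, was at 0.25. Adjusted p-values of these 4 were 0.277, 0.301, 0.393 and 0.460 (limma).

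Upstream of the ribosome, 0 of 15 genes for mitochondrial transcription, RNA processing and DNA maintenance passed (beside 7.73% of all named genes), with a median of 0.04. PNPT1, which degrades mitochondrial RNA, was at -0.39 (adjusted p = 0.185, limma), and TEFM, the transcription elongation factor, was at 0.28 (adjusted p = 0.352, limma). HSD17B10 and TRMT10C, partners in cleaving transfer RNA from precursors, were at -0.25 and 0.17. Of 8 regulators of mitochondrial biogenesis 0 passed (beside the same 7.73%), with a median of 0.04. The coactivator PPARGC1A was at 0.47 with mean signals of 34.4 in HZ and 21.5 in RZ (adjusted p = 0.274, limma), and its other 3 probe sets ran from -0.66 to 0.08. PPARA was at 0.33, with -0.27 at its other probe set. PPRC1 was at -0.17, with -0.12 to 0.07 at 3 others, and YY1 at 0.13, with -0.41 to 0.02 at 2 others.

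Beside these, 0 of 63 cytosolic ribosomal protein genes passed (7.73% of all named genes did). Their median was 0.10, with 53 above 0 (84.1%, beside 48.9% of all named genes). These genes shifted together within pairs, with medians of 0.05, -0.13, 0.61, 0.04, 0.45 and -0.41 in pairs 1 to 6. In pair 5 all 63 were above 0 (beside 53.2% of all named genes), and in pair 6 only 2 were (beside 44.2%). The share above 0 is thus not a count of 53 separate changes. A list of 79 nuclear genes of the respiratory chain and ATP synthase was picked by symbol. It holds partners of the proteins the mitochondrial ribosome makes. Of these 79, 1 rose and 2 fell (3.80%, beside 7.73% of all named genes). Their median was 0.19, with 63 above 0 (79.7%, beside 48.9%). NDUFV3 rose, at 0.63. COX6B2 and NDUFA4L2 fell, at -1.42 and -0.99, with -0.23 at the other probe set of NDUFA4L2. At an unadjusted p under 0.05 (limma) 17 of these 79 were higher and 2 lower. Among all 9155 named genes 1137 were higher and 1158 lower. Both directions together gave 24.1% of the list, beside 25.1% of all named genes. In pairs 1 to 6 the respiratory chain medians were 0.16, -0.12, 0.77, 0.30, 0.45 and -0.09, so pair 3 was highest and pair 2 lowest there as among the members. The medians of these lists are a description of these arrays, and their difference from the members was not tested.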

How the data were processed

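Total RNA was labelled as biotin-tagged cRNA and read on 12 one-colour arrays, per the labels. How the scans were summarised and normalized is not given in the sources used here. The deposited values are linear ratios: for 21901 of 24128 probe sets (90.8%) the signal over that probe set's median across arrays, for 2227 (9.23%) dim ones over a fixed value. Signals were recovered from the step between neighbouring values, on the assumption, stated in no source, that 1 step is 0.1 signal units. The design had assumed intensities, and these signals stood in for them. The recovery and the fit were checked on simulated data.

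The test was limma's (version 3.58.1, R 4.3.3, lmFit then eBayes) on log2(signal + 16), with a term for each pair, which leaves 5 residual degrees of freedom. Benjamini-Hochberg adjustment ran over 24016 probe sets, 112 controls left out, and the threshold was 0.05. Same-numbered arrays deviated together (correlations 0.124 to 0.447, limit 0.1), and the series describes pairs. Symbols came from the platform annotation, neighbours from the RefSeq table of assembly ARS-UCD2.0. The number of arrays limits the precision.

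Members and gene lists were chosen with earlier results of these data known. Named are all members, in full those that passed, those with the smallest p or difference per subunit, the MRPS18 paralogs and genes whose probe sets disagree, and up to 4 genes per list by adjusted p. MALSU1, PTCD3, and the errors of MRPS9, MRPS23, MRPS28 and MRPL37 were added after their values were seen. Alternatives were other added constants, the deposited ratio, quantile normalization, no pair block, only the 16010 brightest probe sets, sets of pairs and each pair left out. Promoter motifs were not analysed here.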

Additional observations from a re-analysis of the deposited data

Results flagged for a closer look

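Among the probe sets given array by array, 1 zone held an array far from the other 5. The dimmer probe set of MRPS2, a small subunit protein, read 16.2 on the RZ array of pair 6, against 59.8 to 91.7 on the other RZ arrays, and the gap was 0.709 of the range on the log2 scale, above Dixon's 95% critical value for 6 arrays. The brighter probe set read 142 on that array, within the range of the other RZ arrays. The cause was not tested, and chance passes this limit in about 5% of groups.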

How the results depend on the processing

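The median of the 67 genes ran from -0.05 to 0.12 over all settings tried, and the large minus small difference from 0.04 to 0.15. Over all probe sets 1494 passed, and 583 with 1 added to the signal, 478 on the log2 of the deposited ratio, 0 in pairs 1 and 2 alone (2931 at an unadjusted p under 0.05, limma), 336 in pairs 3 to 6 alone, 139 without pairs 3 and 4 (chosen after seeing the data) and 557 to 1540 with single pairs left out. Without the pair block 831 passed. Of the members 3 passed, and 5 with 64 added, with MRPS18A then lower and MRPS6 higher. With 1 added, on the deposited ratio, in pairs 1 and 2, in pairs 3 to 6 and without pairs 3 and 4 the count was 0, while 8, 8, 3, 10 and 8 had an unadjusted p under 0.05 (limma). With single pairs left out it was 0 to 3, with 1 without pair 1 and 0 without pair 4 (9 unadjusted) or pair 5 (6 unadjusted). Small differences changed sign. The dimmer MRPL14 probe set was at -0.13 in pairs 3 to 6 and at -0.037 to 0.26 with single pairs left out, and the dimmer MRPS2 probe set at 0.18 and at -0.46 to 0.14. MRPL16 was at -0.16 in pairs 1 and 2 and at -0.078 to 0.050 with single pairs left out, and the brighter MRPS34 probe set at 0.088 and at -0.14 to 0.080. MRPS18B was at -0.037 in pairs 3 to 6 and at -0.037 to 0.059 with single pairs left out. Fits on fewer pairs have fewer arrays; other causes were not tested. Without the pair block MRPS34 and DHX30 lost their calls, and MRPL14, MRPL34 and YBEY did not. Signals near background limit the dim probe sets. The promoter comparison was not run.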
